A study of Mus musculus with 6 samples.

Results

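The Msx and Tfap2 genes were examined in total RNA sequencing of ganglionic eminences dissected from E13.5 (embryonic day) mice. The families were taken by symbol as Msx1 to Msx3 and Tfap2a to Tfap2e, which gave 8 genes of the 55416 in the table of counts. Of these, 6 had enough reads to be tested, while Msx1 and Msx2 did not pass the filter on low counts. There were 3 wild-type libraries and 3 libraries from littermates of the genotype labelled Dlx1/Dlx2 double knockout. All came from frozen tissue of the same region and age. The labels do not name the alleles or say whether a library held 1 embryo or several. The p-values below weigh the genotype difference against the spread between libraries of a group, and whether that is a spread between embryos is not known. The families were chosen with the genotype comparison known, in which Msx3 and Tfap2b already stood out as higher. The genotype differences of the members are therefore given as a description. The members were part of the fit across all genes, but their calls in it are counted once, beside the share of all genes called, and support nothing.

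The Msx genes encode homeodomain transcription factors that are best known as targets and mediators of bone morphogenetic protein (BMP) signalling. They act in the roof plate of the neural tube, in the neural crest and in the limb and face, and mostly repress transcription. Msx3 differs from its paralogues in being confined, as far as is known, to the dorsal neural tube. Msx and Dlx proteins belong to the same NK-like class of homeodomain factors and recognise similar sites with a TAAT core. The Tfap2 genes encode the AP-2 factors, which bind GC-rich palindromes as dimers. AP-2 factors act in the neural crest, the surface ectoderm, the retina and several groups of inhibitory neurons, and Tfap2c also acts in progenitors of the developing cortex. The ganglionic eminences are ventral forebrain tissue and are not a classical site of Msx expression.

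Total counts lay between 56618090 and 70114173 per library, and all pairs of libraries differed by more than sampling noise. Dlx1 was at 434 to 445.7 CPM (counts scaled to a common library size, per M reads, with edgeR's TMM factors) in wild-type libraries and 74.9 to 94.0 CPM in double knockout libraries, and Dlx2 at 281.8 to 313.3 and 7.50 to 11.0 CPM, so each library matched its label. The 15 ganglionic eminence markers were all expressed, with a summed level of 2574 to 2667 CPM in wild-type libraries and 1851 to 2162 CPM in double knockout libraries. Of these 15, edgeR's quasi-likelihood test called 4 higher and 8 lower, led by Gsx1 and Gsx2 (log2 fold changes 2.95 and 0.64) and by Sp8 (-1.72). The call of Gsx2 was lost with the Y-linked covariate and without wild-type replicate 1 or 2, where the edgeR adjusted p reached 0.0969. Of the others counted, Lhx6 (log2 fold change -0.83) was lost in 6 of 13 alternatives. Nkx2-1 and Meis2 were called in 9 and 13 of 14 settings, the reported fit included. Y-linked genes summed to over 50 CPM in 1 wild-type and 2 double knockout libraries, and to at most 0.1715 CPM in the others. In bulk tissue, fewer cells of a type and less RNA per cell cannot be told apart, and this holds for every level below.

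Msx3 (ENSMUSG00000025469) carried nearly all of the Msx signal in the double knockout. It had 41, 101 and 66 reads in wild-type replicates 1 to 3, or 0.700, 1.57 and 1.03 CPM. In double knockout replicates 1 to 3 it had 749, 626 and 936 reads, or 11.5, 10.9 and 13.49 CPM. The groups did not overlap, and the lowest double knockout library lay well above the highest wild-type library. The means were 1.10 ± 0.440 CPM (SD, n = 3) and 11.96 ± 1.37 CPM (SD, n = 3), a 10.9-fold difference of means and a log2 fold change of 3.44 (SE 0.248). The value stayed between 3.20 and 3.78 in the fits that each left out 1 library.

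Msx1 (ENSMUSG00000048450), the paralogue most used as a marker of the roof plate and of BMP response, did not follow Msx3. It had 54 reads in wild-type replicate 1 and 5 to 8 reads in each of the other 5 libraries, so its level was set by a single library and no fold change between genotypes is given. Msx2 (ENSMUSG00000021469), known from skull and limb development, was near the counting floor. It had 12 reads in double knockout replicate 1, 2 reads in wild-type replicate 1 and 0 in the other 4 libraries. A count of 0 allows up to 3 reads, which is between 0.0432 and 0.0520 CPM at these depths, and covers counting error only. Msx3 thus made up 98.1% to 99.4% of the length-scaled Msx signal in the double knockout libraries. In the wild type its share was 96.4% and 92.5% in replicates 2 and 3 and 49.1% in replicate 1, where Msx1 took up 49.2%.

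**Figure D1:**
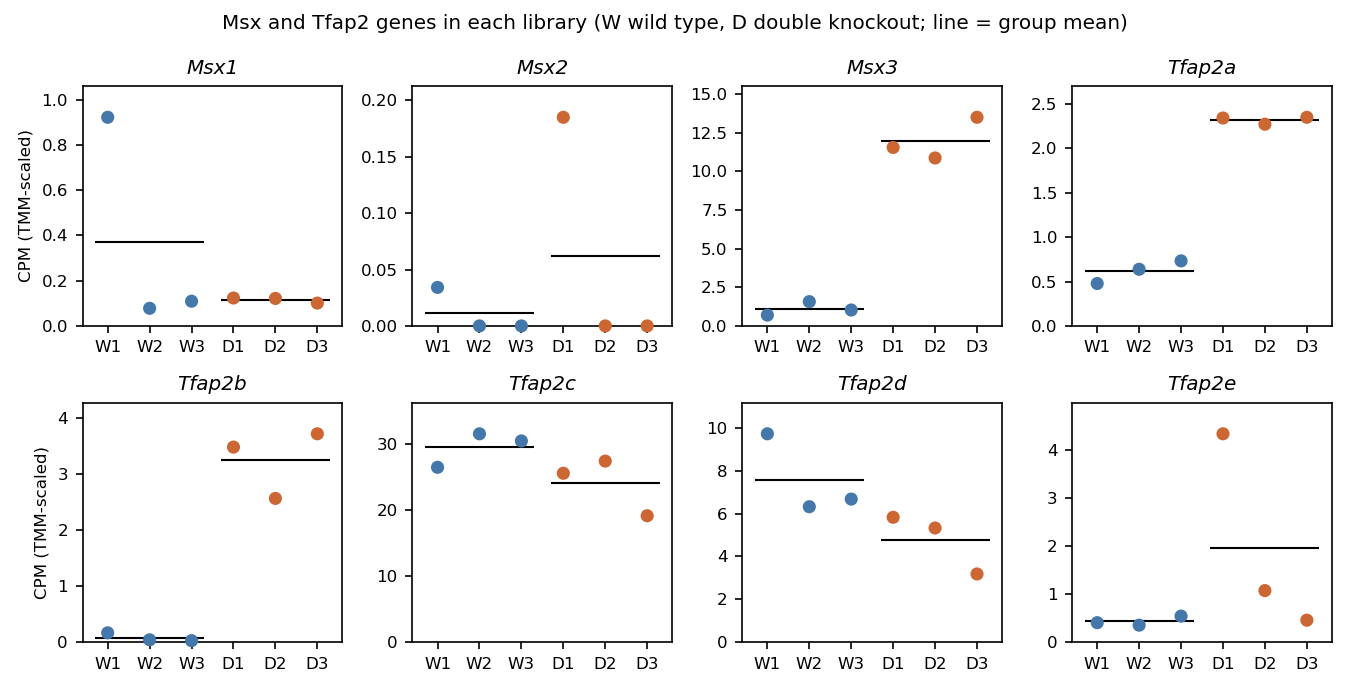
Level of each Msx and Tfap2 gene in the 6 libraries, in TMM-scaled CPM on linear axes that start at 0. Points are libraries (W1 to W3 wild type, D1 to D3 double knockout) and lines are group means. Msx3, Tfap2a and Tfap2b are higher in all 3 double knockout libraries than in any wild-type library, Msx1 is high in W1 alone and Tfap2e is highest in D1.

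Wild-type replicate 1 also stood apart in markers of the choroid plexus, the secretory epithelium of the ventricles. The summed level of 10 such markers was 35.6 CPM in that library and 2.55 to 3.99 CPM in the other 5. Ttr, which encodes the thyroid hormone carrier transthyretin and is the defining marker, was at 26.3 CPM there and at 0 to 0.156 CPM elsewhere. By a criterion set after these values were seen, at least 0.5 CPM and at least 2.5 times the next library, 16 genes stood apart in wild-type replicate 1. They included Msx1, at 7.48 times the next library, and 5 of the 10 choroid plexus markers. None of the other 5 libraries had a choroid plexus marker among the 2 to 13 genes that met the criterion. The part of choroid plexus tissue in the Msx1 reads was not tested.

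**Figure D2:**
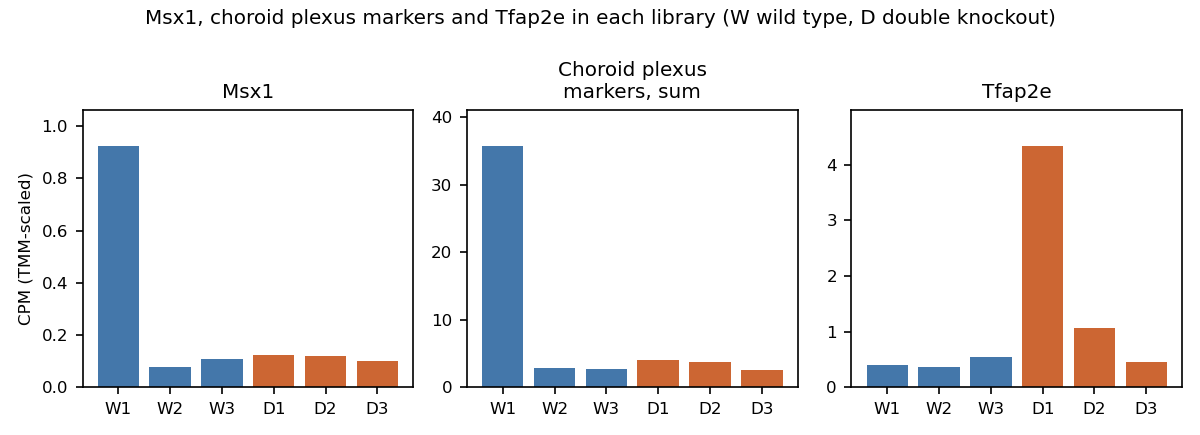
Level of Msx1, summed level of the 10 choroid plexus markers, and level of Tfap2e, in TMM-scaled CPM on axes that start at 0, for wild-type (W1 to W3) and double knockout (D1 to D3) libraries. Msx1 and the choroid plexus markers are high in W1, at 0.922 and 35.6 CPM, and Tfap2e is high in D1, at 4.33 CPM.

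Tfap2b and Tfap2a were the AP-2 genes with higher levels in the double knockout. Tfap2b (ENSMUSG00000025927), which acts in neural crest derivatives and in inhibitory neurons of the cerebellum and retina, had 10, 3 and 2 reads in wild-type replicates 1 to 3, or 0.171, 0.0467 and 0.0312 CPM. It had 226, 148 and 258 reads in double knockout replicates 1 to 3, or 3.48, 2.57 and 3.72 CPM. Wild-type levels were thus close to the floor of 3 reads, and all double knockout libraries lay above them. The log2 fold change was 5.30 (SE 0.419). It was 6.32 without wild-type replicate 1, which held 10 of the 15 wild-type reads, and lay between 4.91 and 5.45 without any one of the other libraries. The size of the fold therefore rests on few wild-type reads.

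Tfap2a (ENSMUSG00000021359), the AP-2 gene of the neural crest and surface ectoderm, had 28, 41 and 47 reads in the wild type and 152, 131 and 163 in the double knockout. These were 0.478, 0.638 and 0.733 CPM against 2.34, 2.27 and 2.35 CPM, and the groups did not overlap. The log2 fold change was 1.91 (SE 0.196). The coefficient of variation was 1.84% in the double knockout and 20.9% in the wild type. At 131 to 163 reads per library, counting error alone exceeds so small a spread, so nothing is read from it. Exons of Tfap2a overlap 3 genes on the opposite strand in GENCODE M21, so its reads are uncertain if strand was ignored in counting. The partners Gm47061, Gm26688 and Gm47067 had at most 10 reads in any library.

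Msx3, Tfap2a and Tfap2b were thus higher together, and the bases before their start sites are printed to show what these promoters hold. RefSeq promoter entries (GRCm38.p6, an earlier build than the authors' GRCm39) were found for 7 of the 8 members, and Tfap2c was the other one. Capitals mark the homeodomain motifs TAATTA and TAATTG, searched on both strands. The AP-2 palindrome GCCNNNGGC was also searched. The Msx3 sequence is that of chr7:140049090-140049338 (minus strand), the Tfap2a sequence that of chr13:40734921-40735170 (minus strand, the more distal of 2 entries) and the Tfap2b sequence that of chr1:19211804-19212053 (plus strand). Each ends just before the transcribed part of its gene.
Msx3: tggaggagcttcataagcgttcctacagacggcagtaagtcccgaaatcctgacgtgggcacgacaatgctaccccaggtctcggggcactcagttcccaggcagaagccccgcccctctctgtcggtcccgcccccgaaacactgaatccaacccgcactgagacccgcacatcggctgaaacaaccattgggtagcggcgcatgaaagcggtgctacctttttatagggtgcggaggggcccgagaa
Tfap2a: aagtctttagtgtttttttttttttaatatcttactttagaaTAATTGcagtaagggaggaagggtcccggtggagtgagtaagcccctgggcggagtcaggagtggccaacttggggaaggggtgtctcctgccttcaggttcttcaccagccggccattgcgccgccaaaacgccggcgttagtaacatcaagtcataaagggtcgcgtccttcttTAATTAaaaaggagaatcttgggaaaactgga
Tfap2b: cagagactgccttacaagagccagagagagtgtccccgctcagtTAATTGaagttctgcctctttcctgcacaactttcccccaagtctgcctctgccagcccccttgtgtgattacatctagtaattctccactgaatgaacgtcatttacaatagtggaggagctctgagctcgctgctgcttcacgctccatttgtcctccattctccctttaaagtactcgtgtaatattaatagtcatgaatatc
The Tfap2a window overlaps an exon of Gm26688. It held 1 TAATTA and 1 TAATTG, the Tfap2b window held 1 TAATTG, and the Msx3 window held neither. Among all 10 entries of the members, TAATTA was in 2 (the distal Tfap2a entry and Msx2), TAATTG in 2 (the distal Tfap2a entry and Tfap2b) and GCCNNNGGC in none. The distal Tfap2a entry is shown because it holds motifs, and the nearer entry held 0 of each. Msx2 had too few reads to be tested in the reported fit, so its direction is not known. Among 32851 promoter windows of 250 bases, 4.84% held TAATTA, 7.17% held TAATTG and 13.7% held GCCNNNGGC. A match describes the letters and is not evidence of binding, and no protein binding was measured here.

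The 2 AP-2 genes with the highest levels did not share this direction. Tfap2c (ENSMUSG00000028640), a regulator of cortical progenitors, was at 26.4, 31.5 and 30.4 CPM in wild-type replicates 1 to 3 and at 25.5, 27.4 and 19.1 CPM in double knockout replicates 1 to 3. The groups overlapped, and the log2 fold change was -0.30 (SE 0.132). Tfap2d (ENSMUSG00000042596), known from the dorsal midbrain and retina, was at 9.71, 6.32 and 6.67 CPM in the wild type and at 5.82, 5.33 and 3.19 CPM in the double knockout. All 3 double knockout libraries were lower than all 3 wild-type libraries, though the closest pair differed by less than the spread within either group, and the log2 fold change was -0.66 (SE 0.244). It was -0.45 without wild-type replicate 1 and -0.43 without double knockout replicate 3. Tfap2d and Tfap2b are close in the genome, and their log2 fold changes had opposite signs. The tested gene Gm10075 starts between their starts. It overlaps the span of Tfap2d on the opposite strand, with 0 exon bases shared. Exons of Tfap2d overlap Gm15825 on the opposite strand, which had at most 5 reads in any library.

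Tfap2e (ENSMUSG00000042477), the AP-2 gene of the olfactory bulb and vomeronasal organ, was set by 1 library. It had 24, 23 and 35 reads in the wild type and 281, 62 and 32 in the double knockout, or 0.358 to 0.546 CPM against 4.33, 1.08 and 0.461 CPM. The groups overlapped, because double knockout replicate 3 lay within the wild-type range. The log2 fold change of 2.15 (SE 0.734) became 0.80 without double knockout replicate 1. By the criterion used for wild-type replicate 1 above, 4 genes stood apart in double knockout replicate 1. Tfap2e was at 4.03 times the next library, and the other 3 were the gene models Gm45246, Gm6410 and Gm37460. Surface ectoderm markers were not part of that group of genes, with a summed level of 3.25 CPM in that library and 2.79 to 2.81 CPM in the other 2 double knockout libraries.

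In the edgeR fit across all genes, 3 of the 6 members that passed the filter, Msx3, Tfap2a and Tfap2b, were past the threshold as higher and 0 as lower. This is a description and not a test of the families, whose choice fixed it in part. Of all 23628 tested genes, 1.34% were called higher, 1.34% lower and 2.68% in either direction, or 317 and 317 genes. With total count scaling in place of TMM the split was 390 higher and 256 lower. Groups without overlap were found for 3 members higher and 1 lower, against 9.3% and 10.2% of tested genes (19.5% in either direction). Nothing is read from these counts, since the families were chosen on this comparison.

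Scaled by exon length in GENCODE M21 as a stand-in for the authors' gene models, wild-type levels were highest for Tfap2c at 8.004 ± 0.724 CPM per kb (SD, n = 3) and Tfap2d at 3.87 ± 0.955. Msx3 followed at 0.467 ± 0.187, Tfap2e at 0.210 ± 0.0465, Tfap2a at 0.126 ± 0.0263 and Msx1 at 0.119 ± 0.155 CPM per kb. Tfap2b, at 0.0131 ± 0.0121, and Msx2, at 0.00347 ± 0.00601, were the lowest. Libraries of neighbouring genes in this order overlapped for Tfap2a and Msx1, for Msx1 and Tfap2b and for Tfap2b and Msx2. In the double knockout the order was Tfap2c at 6.53 ± 1.18, Msx3 at 5.08 ± 0.581, Tfap2d at 2.45 ± 0.717, Tfap2e at 0.938 ± 0.997, Tfap2b at 0.514 ± 0.0960 and Tfap2a at 0.473 ± 0.00872 CPM per kb. Tfap2c and Msx3 overlapped there, as did Tfap2d and Tfap2e, Tfap2e and Tfap2b, and Tfap2b and Tfap2a. Msx1 and Msx2 came last at 0.0372 ± 0.00400 and 0.0188 ± 0.0326 CPM per kb and also overlapped.

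The summed Tfap2 level was 12.1 to 12.5 CPM per kb in the wild type and, overlapping that range, 8.11 to 13.02 among double knockout libraries. Tfap2c made up 57.6% to 70.7% of the family in wild-type libraries and 53.3% to 64.4% in double knockout libraries. Tfap2d made up 26.7% to 39.8% and 20.1% to 23.6%. Tfap2a and Tfap2b made up 3.67% to 5.91% and 3.51% to 7.23% in the double knockout against 0.781% to 1.24% and 0.0407% to 0.216% in the wild type. The summed Msx level was 0.472 to 0.692 CPM per kb in wild-type libraries and 4.65 to 5.76 in double knockout libraries.

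**Figure D3:**
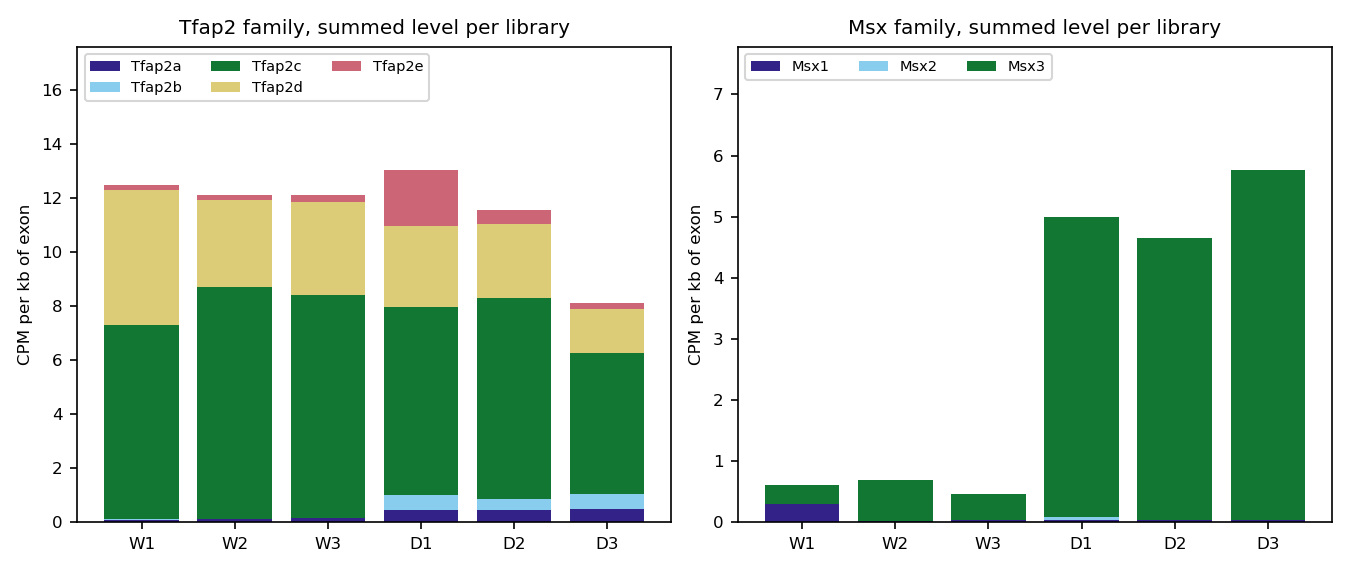
Summed level of the Tfap2 family (left) and the Msx family (right) in each library, in CPM per kb of exon, stacked by gene (W1 to W3 wild type, D1 to D3 double knockout). Tfap2c and Tfap2d make up most of the Tfap2 bars in every library, and Msx3 makes up nearly all of the Msx bars in D1 to D3.

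Upstream and partner genes were examined as lists, and their counts of called genes use edgeR's test adjusted over all tested genes. The BMP pathway list held the ligands, receptors, Smad proteins, antagonists and Id target genes. Of its 24 tested genes 0 were called by edgeR, 3 had an unadjusted p under 0.05, and DESeq2 called 1, Id4, with a log2 fold change of 0.21. The median log2 fold change of the list was 0.05, against -0.002 over all tested genes, and single genes ranged from -0.61 (Bmp2, a ligand) to 0.63 (Bmp7, a ligand whose gene lies next to Tfap2c). The ligand genes Bmp4, Gdf6 and Gdf7 were too low to be tested. The Id genes, direct targets of BMP signalling, had log2 fold changes of 0.10 (Id1), -0.10 (Id2), 0.22 (Id3) and 0.21 (Id4). Without double knockout replicate 1, edgeR called the receptor gene Bmpr1b, with a log2 fold change of 0.61.

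None of the 7 AP-2 cofactor and inhibitor genes was called by edgeR or DESeq2, and 0 had an unadjusted p under 0.05. Cited2 and Cited4 encode coactivators of AP-2, and Kctd1 and Kctd15 encode repressors of it. Their log2 fold changes were -0.003, 0.37, -0.01 and -0.07. Groups did not overlap for 2 of the 7 genes, against 19.5% of all tested genes, so nothing is read from this count. Cited1, a relative of Cited2, was at 1.31 to 1.67 CPM in wild-type and 0.986 to 1.197 CPM in double knockout libraries (log2 fold change -0.41, SE 0.183). Ep300, a histone acetyltransferase, was at 253 to 270.9 and 271.9 to 283.4 CPM (0.09, SE 0.0499). Cited2, Kctd1 and Kctd15 were well expressed in all libraries, at 61.9 to 75.3, 34.8 to 37.8 and 49.8 to 56.8 CPM. Kctd1 and Kctd15, like Id4 above, overlap a gene on the opposite strand.

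The roof plate and cortical hem, where Msx genes are active in dorsal tissue, were covered by 15 tested genes. Zic1, a zinc finger factor of dorsal and medial neural tissue, was at 149.6 ± 35.5 CPM in wild-type libraries and 251.4 ± 20.8 CPM in double knockout libraries (SD, n = 3). It rose by 0.75 on the log2 scale (SE 0.147, edgeR adjusted p = 0.0346). It was the 1 gene of the list that was called. The call was lost with the Y-linked covariate and in the fits without wild-type replicate 1, wild-type replicate 2, double knockout replicate 1 or double knockout replicate 2, where the edgeR adjusted p reached 0.140. Groups did not overlap for 3 genes that were higher, Zic1, Zic4 and Lmx1b, and 1 that was lower, Wnt5a. Of all tested genes, 9.3% were higher and 10.2% lower without overlap. Zic4, the neighbour that overlaps Zic1 on the opposite strand, was at 17.1 to 41.8 CPM in wild-type and 47.1 to 74.5 CPM in double knockout libraries (log2 fold change 1.27, SE 0.321). EdgeR called it without the filter on low counts and without wild-type replicate 3. Lmx1b, a LIM homeodomain gene of the roof plate and midbrain, was at 0.0468 to 0.1195 and 0.2003 to 0.346 CPM (log2 fold change 1.83, SE 0.472). Its lowest wild-type level lay at the floor of 3 reads, 0.0432 to 0.0520 CPM, so the size of this fold rests on few reads. Wnt5a, a secreted ligand, was at 14.7 to 22.3 and 11.7 to 12.5 CPM (log2 fold change -0.60, SE 0.141) and was called by DESeq2, by edgeR without the filter and without wild-type replicate 2. Lmx1a, the defining roof plate factor, was at 0.125 to 1.04 CPM in wild-type libraries and 0.187 to 1.29 CPM in double knockout libraries, and the groups overlapped. Wnt1, Wnt3a, Pax3 and Atoh1 were too low to be tested. The median log2 fold change of the list was 0.24.

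Regulators of the midbrain and diencephalon, where Tfap2b and Tfap2d are also expressed in the embryo, gave 6 called genes of 22 tested, 5 higher and 1 lower. The list was written with the changes of Pax5, Pax7 and Otx2 already known and is not independent evidence of its direction. Tal2, a factor of midbrain inhibitory neurons, was at 1.05 ± 0.0538 CPM in wild-type libraries and 5.93 ± 1.20 CPM in double knockout libraries and rose by 2.499 on the log2 scale (SE 0.179, edgeR adjusted p = 2.19e-04). Irx2, an Iroquois homeodomain gene, was at 0.149 ± 0.0332 and 0.885 ± 0.275 CPM and rose by 2.55 on that scale (SE 0.346, edgeR adjusted p = 0.00622). Helt, which acts beside Tal2 in midbrain inhibitory neurons, was at 3.86 ± 1.03 and 1.08 ± 0.207 CPM and fell by 1.84 on that scale (SE 0.231, edgeR adjusted p = 0.00401). Tal2 and Helt, both of the same neuron class, thus went in opposite directions. Pax7, Pax5 and Otx2 had log2 fold changes of 5.87, 3.93 and 1.44. En1 and En2, which define the midbrain and hindbrain border, were at 0 to 0.0468 and 0.0171 to 0.231 CPM over the 6 libraries and were not tested. The median of the list was 0.44, and DESeq2 called 10 of its genes.

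Tfap2a and Tfap2b act downstream of Ptf1a in inhibitory neurons of the cerebellum and retina. Ptf1a itself was at 0 to 0.154 CPM and was not tested, and its target Prdm13 had a log2 fold change of -0.20. Of 12 tested genes of this lineage, 1 rose and 3 fell. Lhx1, a LIM homeodomain gene, was at 6.44 ± 0.778 CPM in wild-type libraries and 10.7 ± 0.992 CPM in double knockout libraries and rose by 0.73 on the log2 scale (SE 0.120, edgeR adjusted p = 0.0157). This call was lost without wild-type replicate 1 or 2 or double knockout replicate 1 or 2, where the edgeR adjusted p reached 0.0774. The 3 genes that fell, Slc32a1, Gad1 and Gad2, encode the vesicular transporter and the synthesising enzymes of GABA and are used by ganglionic eminence neurons too. Their log2 fold changes were -2.85, -1.47 and -1.38. The median over the list was -0.05.

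Of 12 tested neural crest regulators, 4 rose and 0 fell, with a median log2 fold change of 0.44. They were Pax7, also counted above, and Sox10, Ednrb and Sox9, with log2 fold changes of 5.87, 2.20, 0.88 and 0.72 (SE 0.281, 0.167, 0.0781 and 0.102). The changes of Pax7, Sox10 and Sox9, and that of Hmx3 below, were also known when the lists were written. Sox10, Ednrb and Sox9 are also genes of glial progenitors in the brain. Foxd3, a defining neural crest factor, had 0 reads in all libraries, and Twist1, a factor of crest-derived mesenchyme, was at 0.140 to 0.245 CPM. DESeq2 called 5 of the 12 genes, the added one being Ret. Ret was at 2.39 ± 0.571 CPM in wild-type and 3.86 ± 0.725 CPM in double knockout libraries (edgeR log2 fold change 0.69, SE 0.213). Among the NK-like homeobox class, to which Msx and Dlx belong, 6 of 18 tested genes were called. Hmx3, Hmx2 and Nkx2-1 rose, with log2 fold changes of 2.64, 1.87 and 0.59, and Dlx5, Dlx6 and Vax1 fell, with -2.93, -2.55 and -0.68. Nkx2-1 was lost in 5 of 13 alternatives, where the edgeR adjusted p reached 0.147. The median of this class was 0.27. Of the genes named from these lists, Zic1, Zic4, Wnt5a, Pax5, Slc32a1, Dlx6, Ptf1a and Bmp4 also overlap a gene on the opposite strand and Otx2 overlaps genes on both strands, while Foxd3 and Ep300 share exon bases with a gene of their own strand. Lhx6, named among the ganglionic eminence markers, also shares exon bases with a gene of its own strand. The counts of these genes, and of Krt5 below, are uncertain for that reason.

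**Figure D4:**
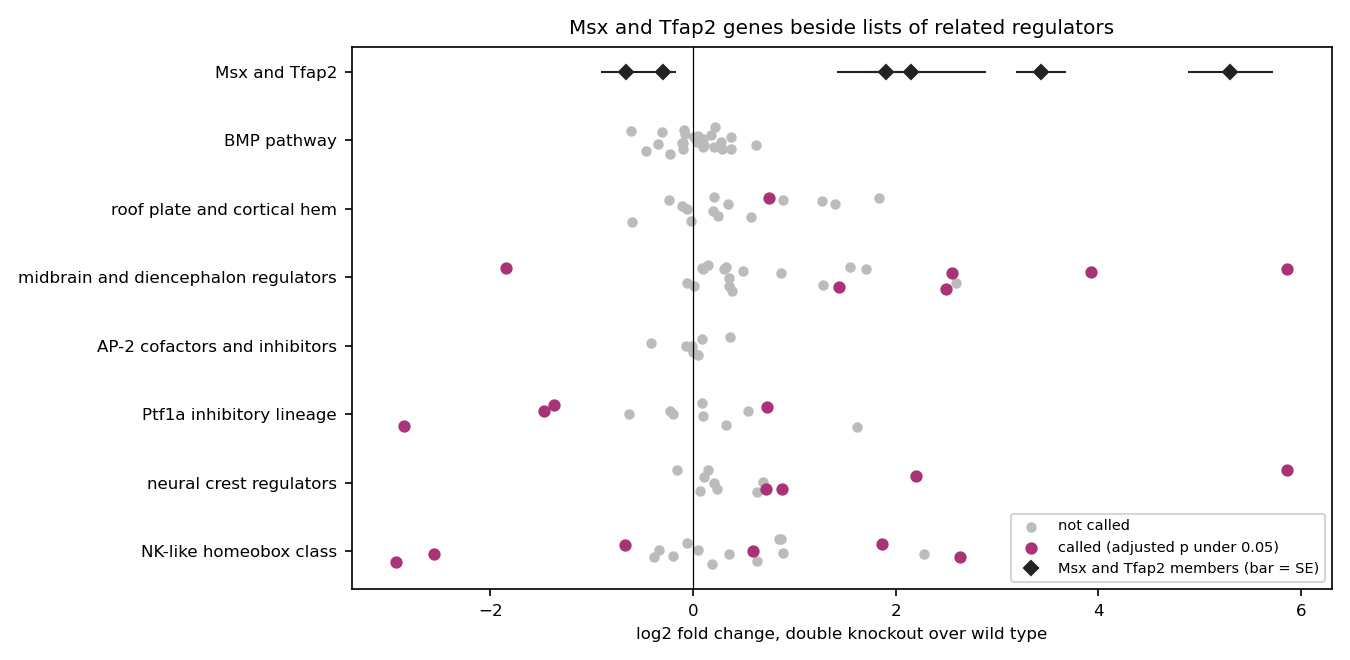
Log2 fold change of double knockout over wild type for the 6 tested Msx and Tfap2 genes (diamonds, bars are SE) and for the tested genes of 7 lists (points, spread vertically for legibility, coloured where called by edgeR). BMP pathway genes and AP-2 cofactors lie within 0.63 of 0 with none called. The members range from -0.66 to 5.30, and their families were chosen with this comparison known, so the rows are not to be compared.

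Of 43 genes that flank the members, taken as the 3 nearest tested genes on each side in GENCODE M21, 1 was called, or 2.33%, close to the 2.68% of all tested genes. It was Drd1, a dopamine receptor gene of striatal neurons next to Msx2, at 2.27 ± 0.722 CPM in wild-type libraries and 0.611 ± 0.0653 CPM in double knockout libraries. Drd1 fell by 1.89 on the log2 scale (SE 0.263, edgeR adjusted p = 0.00732). Next to Msx3, Zfp511 and Caly had log2 fold changes of -0.11 and -0.01. Beside Tfap2b, Gm10075 and Gm4849 had -0.12 and 0.32. The flanking genes had a median log2 fold change of -0.02.

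Other cell types that express these families could have come with the dissection, and their markers were compared. Surface ectoderm markers, a site of Tfap2a, summed to 1.90 to 2.70 CPM in wild-type libraries and 2.79 to 3.25 CPM in double knockout libraries. These sums did not overlap, but 0 of 5 tested genes were called by edgeR or DESeq2 and 1 had an unadjusted p under 0.05. The defining keratin genes Krt5 and Krt14 were at or under 0.101 CPM in every library. Mesenchyme and meninges markers, a site of Msx1, Msx2 and Tfap2b, summed to 61.5 to 75.9 and 67.8 to 71.3 CPM, with overlap, and 0 of 11 were called by edgeR or DESeq2 (1 at an unadjusted p under 0.05). Choroid plexus, vascular, microglia and blood markers gave 0 called genes of 7, 6, 7 and 9 by edgeR or DESeq2, and 0 of them had an unadjusted p under 0.05. The choroid plexus markers Ttr, Folr1 and Kcne2, which stood apart in wild-type replicate 1, did not pass the filter and were not tested. The part of these cell types in the levels of the members was not tested.

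The genes whose levels over the 6 libraries were most like those of each member were found among the 16486 tested genes that averaged 1 CPM or more. These correlations of log2 CPM are a description over 6 points that fall into 2 genotypes, so any gene that separates the genotypes evenly scores high. For Msx3 the closest were Rorb, Sox21 and Hes6, with Pearson's r of 0.997, 0.997 and 0.996 and log2 fold changes of 0.60, 0.85 and 0.73. Hes6 and Sox21 encode transcription factors of neural progenitors and Rorb a nuclear receptor. For Tfap2a they were Fhad1, Abtb2 and Ptpn13 (r = 0.997, 0.996 and 0.996), and for Tfap2b Ankrd6, 1700113A16Rik and Fam102b (r = 0.998, 0.997 and 0.995). For Tfap2d they were P2rx6, Rnf182 and Shank2 (r = 0.9996, 0.999 and 0.997), and for Tfap2c D5Ertd579e, Zbtb49 and Rpl34-ps2 (r = 0.985, 0.981 and 0.978). For Tfap2e, Slitrk2, Tigd2 and Mir378b came closest (r = 0.993, 0.982 and 0.981). Tfap2e was set by double knockout replicate 1, so for it a gene that is high in that library scores high. Slitrk2, Tigd2 and Mir378b were at 44.45, 9.92 and 1.94 CPM in that library. Their double knockout means were 40.35, 9.12 and 1.325 CPM.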

How the data were processed

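The authors deposited 1 table of raw gene counts for 6 libraries, made with featureCounts on GRCm39 per the submitters' processing notes. Libraries came from a stranded, ribosomal RNA depleted total RNA kit, per the labels' protocols. The aligner, annotation release, versions and strand setting are not given in the sources used here. Genes were filtered with filterByExpr (minimum count 10, minimum total 15) in edgeR 4.0.16 and R 4.3.3, scaled by TMM and tested with the quasi-likelihood test (prior count 0.125, Benjamini-Hochberg adjustment over 23628 genes, called under 0.05). SE is the coefficient divided by the square root of F. The test was checked on simulated data. Exon lengths, overlaps and gene order came from GENCODE M21, in which 94.1% of identifiers were found. Groups and replicate numbers are from the titles. The members and lists were chosen with earlier results of these data known. Named genes were the members, Dlx1, Dlx2, up to 3 called genes per direction in each list (2 for markers), called neighbours and the 3 most correlated genes (prior count 0.5). Some genes this rule names are not reported here. Bmp2, Bmp7 and other uncalled genes were named as defining genes or extremes after their values were seen. Alternatives were DESeq2 1.42.0 and its size factors in edgeR, total count scaling, 2 other filters, a replicate block, a Y-linked covariate and leaving out each library.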

Additional observations from a re-analysis of the deposited data

How the results depend on the processing

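Of 78 alternative values for the members' log2 fold changes, 76 stayed within 1 SD of the replicates and 0 changed direction. The exceptions were Tfap2b without wild-type replicate 1 and Tfap2e without double knockout replicate 1. Without 1 library, the ranges were 3.20 to 3.78 for Msx3, 1.76 to 2.05 for Tfap2a, 4.91 to 6.32 for Tfap2b, -0.40 to -0.15 for Tfap2c, -0.83 to -0.43 for Tfap2d and 0.80 to 2.64 for Tfap2e. Of all genes, 634 were called, 1129 with DESeq2, 358 with the Y-linked covariate and 309 to 749 without 1 library. The count was 309, 325 and 403 without wild-type replicates 1, 2 and 3, and 380, 402 and 749 without double knockout replicates 1, 2 and 3. Without a library, counts were 0 to 1 for the BMP list and 0 to 3 for the roof plate list. The BMP list gave 1 with DESeq2. The roof plate list gave 3 without a filter, 0 with the Y-linked covariate and 2 with DESeq2. The midbrain and diencephalon list gave 10 without a filter and 10 with DESeq2. Of the flanking genes, 2 were called without a filter and 3 with DESeq2, the added ones being Stk32b and, in DESeq2, Gcnt2. The cause was not tested. The marker levels stayed within 1 SD under total count scaling. With the replicate block 690 genes were called, 560 of them among the 634, and 2 flanking genes. Deviations of same-numbered libraries correlated at -0.0950, -0.00477 and -0.00745, so the numbers were not taken to pair the libraries, and none of the libraries correlated best with its own number. The Ptf1a list gave 6 called genes in place of 4 with the block, without a filter and with DESeq2. It gave 3 to 6 in the fits that each left out 1 library. Tfap2e, which was not called in the reported fit, was past edgeR's threshold in 1 alternative, without double knockout replicate 3. At wild-type counts of 2 to 10, depth limits the fold of Tfap2b. Msx1 and Msx2 were tested only in the fit without the filter on low counts, where edgeR called neither.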
